A study of Mus musculus with 7 samples.

Results

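The genes described here are 7 claudins, Cldn18, Cldn2, Cldn3, Cldn4, Cldn7, Cldn12 and Cldn23, and Amotl1, 8 of the 18907 genes in the count tables of single gastric epithelial cells from C57BL/6 mice. They were taken by name from every table. They had been selected on their levels in these same cells, the claudins by cell type and Amotl1 by region, so those patterns are described below without a test. Glands were squeezed out of mouse stomach, digested to single cells and sorted alive into 384-well plates, and transcripts were counted by unique molecular identifiers (UMIs) with CEL-seq2, in the plate-based method SORT-seq. The tested region was the pylorus, the outlet of the stomach, with 3 plates, and it was set against the corpus, the acid-producing body, with 4 plates. All plates carry the label wild type in their titles, no treatment is given, and age, sex and the animals behind each plate are not given. The labels call these plates replicates but do not say that they came from separate animals, so the errors below measure the spread between plates.

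Claudins are membrane proteins that seal the space between neighbouring epithelial cells at the tight junction. Claudin-3, claudin-4 and claudin-7 are known mainly as barrier or regulatory claudins, while claudin-2 forms a channel for small cations and water, and claudin-18 has a stomach-specific isoform that limits the leak of acid into the mucosa. Amotl1 belongs to the angiomotins, scaffold proteins of the tight junction that bind YAP, the effector of the Hippo pathway, and link it to the junction and the actin cytoskeleton. Tags from the 3' end give 1 count per captured transcript, so levels of different genes are compared here as CPM, a gene's UMIs scaled to a common total of all UMIs of the same cells, without a length correction. The tables do not separate isoforms.

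Wells counted as cells from 1000 UMIs on, spike-ins aside, which left 983 pylorus and 1252 corpus cells, 2235 of 2688 wells. The plates held 2646492 to 9046406 UMIs for the pylorus and 2733107 to 9511078 for the corpus. Pit-like, neck-like and chief-like cells of pylorus replicate 1 and corpus replicates 1 and 2 lay almost wholly in other clusters than those of pylorus replicates 2 and 3 and corpus replicates 3 and 4, which are called the 4 similar plates below; cycling, endocrine-like, immune-like, parietal-like and tuft-like clusters held cells of both sets. Wells carry the numbers 1 to 384 in every plate, so well names cannot show shared cells, and 0 of the 2235 kept cells had the same counts as another. Regional markers gave a mixed picture of the labels. Gast, the hormone of antral G cells, had 0 UMIs in each of the 3 pylorus plates, and among corpus plates it had 3340 in replicate 1 and 0 in replicates 2, 3 and 4. Pdx1, a transcription factor of the antrum, also had 0 UMIs in the pylorus plates, against 6, 0, 3 and 1 in corpus replicates 1 to 4. Atp4b, a subunit of the acid pump of parietal cells, was at 73.4, 668 and 1039 CPM in pylorus replicates 1 to 3 and at 294, 19.0, 2913 and 1813 CPM in corpus replicates 1 to 4, so it was higher in corpus on the 4 similar plates. There parietal-like cells were 3.30% and 5.42% of pylorus and 15.5% and 12.6% of corpus cells. Gif, the intrinsic factor gene of chief cells, overlapped over all plates, at 1082 to 3534 CPM in pylorus and 805 to 4999 CPM in corpus plates. On the 4 similar plates Gif was higher in pylorus, at 1082 and 1107 CPM against 805 and 916 CPM in corpus. Chief-like cells were 15.9% and 16.5% of pylorus and 9.97% and 7.485% of corpus cells there. Because Gast was seen only in corpus replicate 1, that plate is called the library labelled corpus replicate 1, and results that rest on it are given with and without it.

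Cells were clustered without the claudins, Amotl1 and the other listed junction genes, and clusters were named from marker genes. This gave 415 pit-like (surface mucous), 433 neck-like (mucous neck or gland), 283 chief-like, 144 parietal-like, 302 endocrine-like, 263 proliferating-like, 50 tuft-like and 115 immune-like cells, and 230 cells stayed unnamed. A class was summed in a plate where it had at least 10 cells. Parietal-like sums therefore came from the 4 similar plates only, chief-like sums from all but the library labelled corpus replicate 1, and pit-like sums from all but corpus replicate 2. The epithelial markers Epcam and Cdh1 were detected in 74.3% to 98.0% and 90.1% to 100% of the cells of each epithelial class, against 6.96% and 67.0% of immune-like cells, which carried the mast cell protease Cpa3 at 7971 CPM.

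Together the 7 claudins had 40413 UMIs in kept cells, and Cldn18 held 95.7% of them. Cldn18 had 38675 UMIs and was detected in 92.6% of cells. Cldn12, a claudin that lacks the usual PDZ-binding end, followed with 883 UMIs, then Cldn7 with 423, Cldn2 with 306, Cldn3 with 86, Cldn23 with 33 and Cldn4 with 7. Amotl1 had 889 UMIs. A table does not list every gene. Cldn2 had 0 UMIs in kept wells of pylorus replicates 1 and 2 and corpus replicate 3, Cldn3 in pylorus replicate 1, and Cldn4 in pylorus replicate 3 and corpus replicates 1, 3 and 4, and the tables of those plates hold no row for them.

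**Figure D1:**
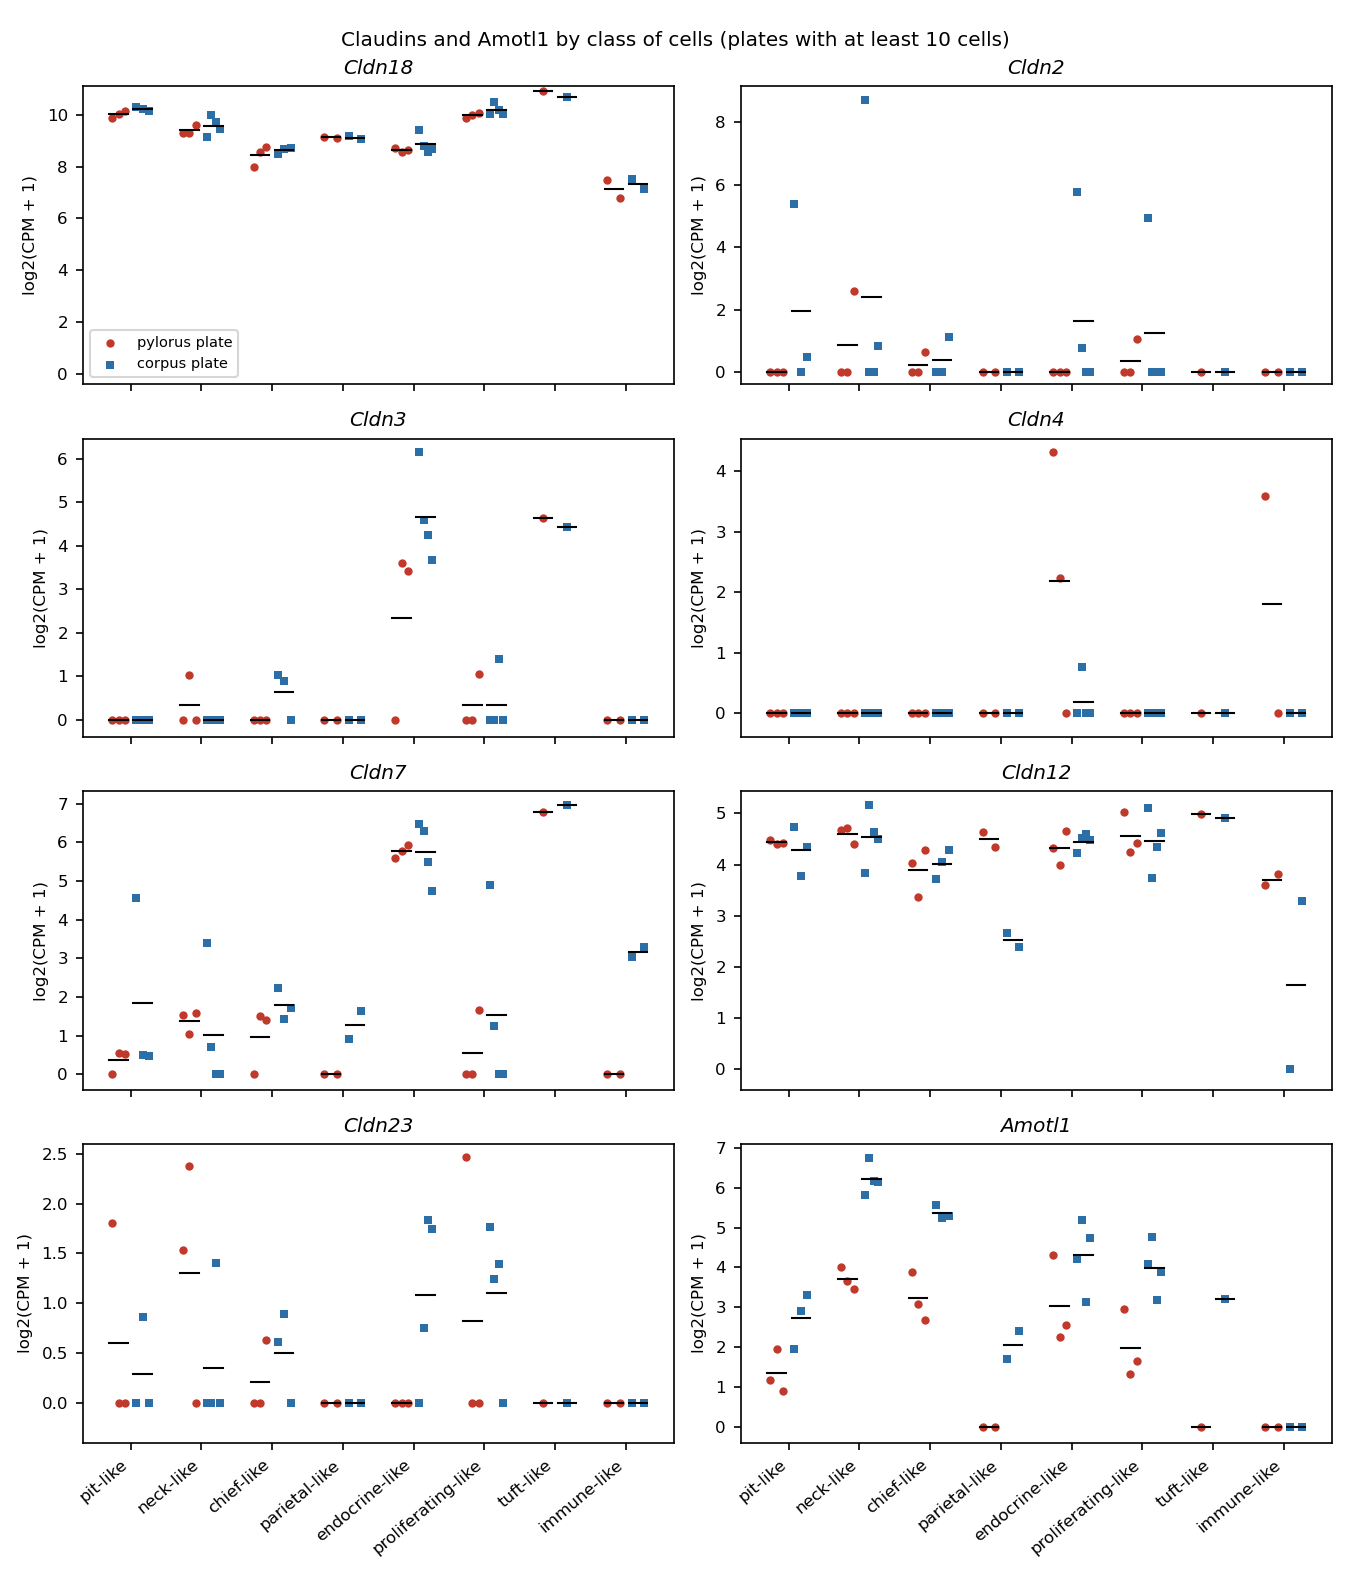
Level of each claudin and of Amotl1 in 8 classes of cells, as log2(CPM + 1), 1 point per plate with at least 10 cells of the class (pylorus red circles on the left, corpus blue squares on the right, black lines the means of the log values). Cldn18 is high in every epithelial class, Cldn7 and Cldn3 in endocrine-like and tuft-like cells, and the corpus points of Cldn2 that stand out, up to 422 CPM in neck-like cells, are the library labelled corpus replicate 1.

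Cldn18 was the main claudin of every class. Its level was highest in tuft-like cells, at 1914 CPM in pylorus replicate 3 and 1636 CPM in corpus replicate 4, the only plates with at least 10 such cells. Pit-like cells averaged 1121 ± 115 CPM (SD, n = 6 plates) and proliferating-like cells 1103 ± 167 CPM (n = 7). The line between these classes was soft: 86 of the 263 proliferating-like cells became pit-like with junction genes kept in the clustering, and 100 at a lower resolution, where the means were 1158 CPM in pit-like and 1021 CPM in proliferating-like cells. A cluster of 89 proliferating-like cells, led by Mt2, Ppia and Dmbt1, had 0 proliferation markers among its 10 leading genes. Neck-like cells averaged 738 ± 157 CPM (n = 7), parietal-like cells 555 ± 20.4 CPM (n = 4), endocrine-like cells 445 ± 109 CPM (n = 7) and chief-like cells 376 ± 67.6 CPM (n = 6). In that order, the plate ranges of neighbours overlapped from pit-like down to chief-like cells. Within plates much of the order was steadier. Cldn18 was higher in pit-like than in neck-like cells in 6 of 6 plates. It was higher in neck-like than in chief-like cells in 6 of 6, and higher in parietal-like than in chief-like cells in 4 of 4. The order of endocrine-like over chief-like cells was not kept, since Cldn18 was higher in chief-like cells in 4 of 6 plates.

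The immune-like cells, which are not epithelial, had Cldn18 at 153 ± 33.7 CPM (SD, n = 4 plates), and 45.2% of them held a UMI of it at a median of 3691 UMIs per cell. This level, whose source was not tested, was taken as the background, and it lay below every epithelial plate sum, the lowest of which was 252 CPM. The 453 wells left out for low counts had Cldn18 at 573 CPM, above the means of parietal-like, endocrine-like and chief-like cells. What those wells held was not tested, so the immune-like level is not an upper limit of the background. With each cell thinned to 1000 UMIs, which left out no cell, a Cldn18 UMI was found in 80.0% of tuft-like, 63.9% of proliferating-like, 61.9% of pit-like, 52.2% of neck-like, 39.6% of parietal-like, 35.1% of endocrine-like and 34.6% of chief-like cells, against 16.5% of immune-like cells. Unthinned, the epithelial classes lay between 89.1% and 100%, at median depths of 10679 to 34935 UMIs.

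Cldn12 was the most even member. Its class means ran from 13.2 ± 9.9 CPM in parietal-like cells (SD, n = 4) and 14.9 ± 3.6 CPM in chief-like cells (n = 6) to 23.4 ± 6.5 CPM in neck-like cells (n = 7) and 29.9 CPM over the 2 tuft-like sums. Plate ranges of neighbouring classes overlapped throughout the order, and immune-like cells had 8.2 ± 5.8 CPM on 4 UMIs in all. Within plates, Cldn12 was lower in chief-like than in neck-like, proliferating-like or endocrine-like cells in 6 of 6 plates each. It was lower in parietal-like than in neck-like cells in 4 of 4. Comparisons among neck-like, pit-like, proliferating-like and endocrine-like cells went both ways. Cldn12 held 1.25% of the claudin UMIs of tuft-like cells and 4.06% of those of endocrine-like cells, the lowest and the highest share among the epithelial classes. Cldn23, a little-studied claudin of gut epithelium, never passed 4.55 CPM in a plate sum of a named class, on 1 to 4 UMIs a sum where it was seen, and its 33 UMIs came from 23 cells. Cldn4 had 7 UMIs in 6 cells, 5 of the UMIs in endocrine-like cells, and 4 of those in the 23 cells led by Sst.

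Cldn7 and Cldn3 were the claudins that set endocrine-like and tuft-like cells apart in the description by class. These cells were 15.7% of all kept cells and held 76.8% of the Cldn7 UMIs, 93.0% of the Cldn3 UMIs and 6 of the 7 Cldn4 UMIs. Without the library labelled corpus replicate 1, the shares were 88.6% for Cldn7 and 92.7% for Cldn3. Since the claudins were chosen by cell type, this is given as a description. The 250 bases before the annotated start of each gene are shown because these claudins were high in the same classes. They are from RefSeq on GRCm38.p6, on the plus strand, 5' to 3', with the GC box (GGGCGG, either strand) in capitals.
Cldn3, chr5:134985964-134986213: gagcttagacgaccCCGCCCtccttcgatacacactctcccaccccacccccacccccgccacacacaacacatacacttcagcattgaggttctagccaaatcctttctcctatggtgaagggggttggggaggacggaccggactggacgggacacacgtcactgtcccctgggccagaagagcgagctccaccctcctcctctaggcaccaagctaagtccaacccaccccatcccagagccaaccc
Cldn7, chr11:69965171-69965420: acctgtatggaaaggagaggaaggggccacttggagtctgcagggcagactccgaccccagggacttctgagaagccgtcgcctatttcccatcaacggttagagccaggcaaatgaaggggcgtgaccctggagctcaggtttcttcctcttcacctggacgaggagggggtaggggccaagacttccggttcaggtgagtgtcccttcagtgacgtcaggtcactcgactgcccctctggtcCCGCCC
Each window holds 1 GC box, a motif found in 32.7% of 32851 RefSeq windows of the same length. The E-box (CANNTG, either strand, where a palindromic match is counted once) occurs 0 times before Cldn3 and 4 times before this Cldn7 start, with 66.2% of all windows holding at least 1, and the octamer ATGCAAAT is in neither, with 1.60% of all windows holding it. A second annotated Cldn7 start, with its window at chr11:69964529-69964778, holds 0 GC boxes and 0 E-boxes. RefSeq windows were at hand for 7 of the 8 genes.

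Endocrine-like cells, which make hormones or histamine, had Cldn7 at 47.5, 54.0 and 59.6 CPM in pylorus replicates 1 to 3, and at 88.0, 77.0, 43.6 and 25.9 CPM in corpus replicates 1 to 4. The pylorus plates lay within the corpus range. All sums but that of corpus replicate 4 lay above 28.8 CPM, the highest Cldn7 sum of any other class besides tuft-like cells. In tuft-like cells, chemosensory cells with an apical tuft, Cldn7 reached 110 CPM in pylorus replicate 3 and 124 CPM in corpus replicate 4. Pooled over all plates, tuft-like cells had 131 CPM of Cldn7 on 109 UMIs. Cldn7 was detected in 72.0% of tuft-like and 40.4% of endocrine-like cells, against 1.74% of immune-like cells.

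Cldn3 was lower than Cldn7 in the same cells. In endocrine-like cells it had 0, 11.2 and 9.67 CPM in pylorus replicates 1 to 3, and 70.4, 23.4, 17.97 and 11.8 CPM in corpus replicates 1 to 4, on 0 to 34 UMIs a plate. The plates of the regions did not overlap, but Cldn3 did not pass the filter on low counts in this class, so the difference was not tested. The corpus value of 70.4 CPM rested on 4 UMIs, and the pylorus value of 0 on a plate where 3 UMIs would have been 28.5 CPM. In tuft-like cells Cldn3 had 24.0 CPM in pylorus replicate 3 and 20.7 CPM in corpus replicate 4. Elsewhere it had 6 UMIs in the 1631 other cells of the plates besides the library labelled corpus replicate 1, and 0 in the other cells of that library.

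Of 302 endocrine-like cells, 29 held UMIs of both Cldn7 and Cldn3, 93 of Cldn7 alone, 19 of Cldn3 alone and 161 of neither. Cldn3 was seen in 23.8% of the cells with Cldn7 and 10.6% of those without, at median depths of 14824 and 8543 UMIs, so the deeper cells held both more often and depth was not tested apart from co-detection. In tuft-like cells the numbers were 11, 25, 3 and 11 of 50. UMIs of both claudins were seen whichever hormone or amine gene led the cell, though few of Cldn3 in some groups. Cells led by Ghrl, the ghrelin gene, had 68.2 CPM of Cldn7 pooled over plates (95% Poisson interval 57.6 to 80.2, 164 cells). Cells led by Hdc, the histamine-forming enzyme, had 44.3 CPM (33.6 to 57.4, 107 cells), and cells led by Sst, the somatostatin gene, had 79.4 CPM (39.6 to 142, 23 cells). By plate, over the 5 plates with at least 10 such cells each, Cldn7 was 56.1 ± 29.7 CPM in Ghrl-led and 35.8 ± 14.9 CPM in Hdc-led cells (SD, n = 5), with ranges of 10.4 to 91.1 and 16.2 to 58.0 CPM that overlapped. The Poisson intervals cover counting error only. Cldn3 had 40 UMIs in Ghrl-led and 16 in Hdc-led cells. In Sst-led cells it had 5 UMIs in 3 of 23 cells. The 5 cells led by Gast held 2 Cldn7 UMIs and 1 Cldn3 UMI.

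**Figure D2:**
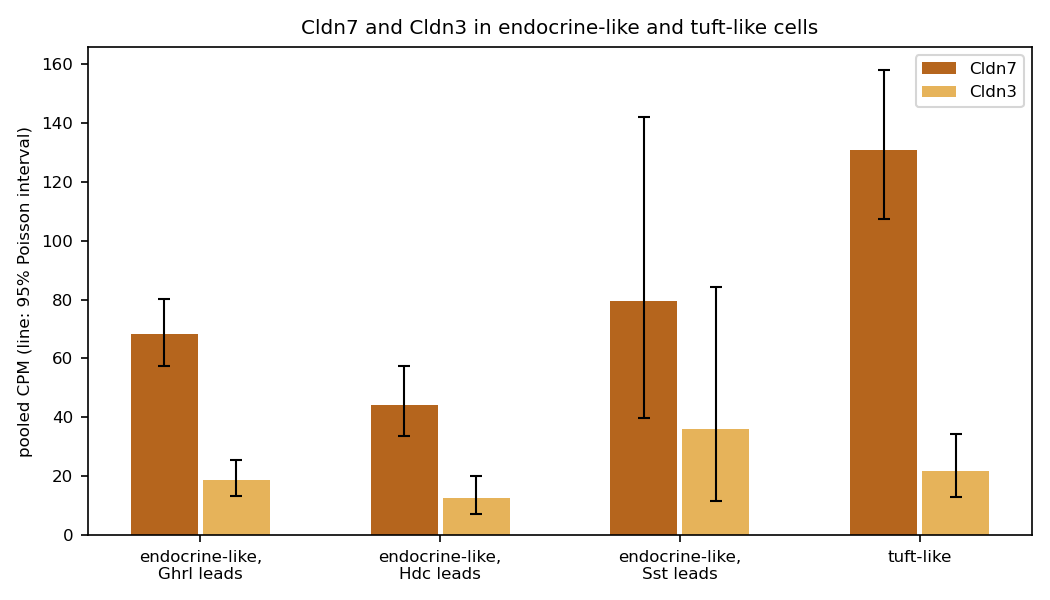
Pooled CPM of Cldn7 (brown) and Cldn3 (yellow) in endocrine-like cells by the hormone or amine gene with most UMIs in the cell, and in tuft-like cells, all plates together. Lines are 95% Poisson intervals and cover counting error only. Cldn7 lies above Cldn3 in each kind of cell, at 131 against 21.6 CPM in tuft-like cells.

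The claudin make-up of a class follows from these levels. In endocrine-like cells, claudins other than Cldn18 held 19.5% of 1873 claudin UMIs, with Cldn7 at 11.5% (Wilson 95% interval 10.2 to 13.1), Cldn12 at 4.06% and Cldn3 at 3.31%. In tuft-like cells they held 8.99% of 1680, with Cldn7 at 6.49%. In neck-like cells they held 7.09% of 5938, with Cldn2 at 3.84%, and this Cldn2 share came almost wholly from the library labelled corpus replicate 1. In chief-like, proliferating-like, pit-like and parietal-like cells they held 4.40%, 3.23%, 2.06% and 1.85%, and of these Cldn12 led in each. The shares count the 7 claudins only. Cldn8, which lies outside them, had 33.3 CPM in chief-like cells pooled over plates, above Cldn12 at 14.6 CPM. A chief-like share that counted Cldn8 would be higher than 4.40%. Cldn18 held over 50% of the claudin UMIs in all 8 classes.

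**Figure D3:**
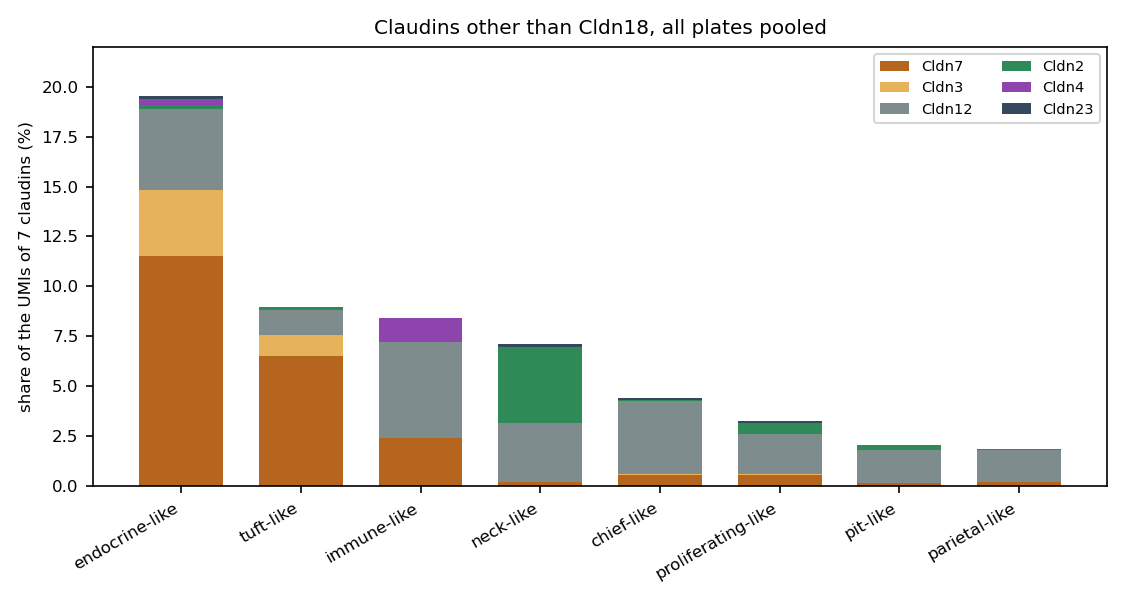
Share of the UMIs of the 7 claudins, in percent, held by each claudin other than Cldn18, by class with all plates pooled. The bars are 19.5% high in endocrine-like and 8.99% in tuft-like cells, where Cldn7 is the largest piece. The immune-like bar rests on 7 of 83 UMIs.

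Cldn2 was almost confined to a single library. Of 306 Cldn2 UMIs, 294 (96.1%) were in the library labelled corpus replicate 1, against 0, 0 and 8 UMIs in pylorus replicates 1 to 3 and 1, 0 and 3 in corpus replicates 2 to 4. A cluster of 19 neck-like cells, all from that library, held 217 of them. Its leading genes were Gkn3, a gastrokine of gland mucous cells, then Cldn2 itself, the water channel Aqp5 and others, including Cd44 and the chloride channel Cftr. Cldn2 was found in 18 of the 19 cells, with a median of 9 and at most 44 UMIs a cell, and it exceeded Cldn18 in 16 of them. In this cluster Cldn2 reached 1166 CPM (95% Poisson interval 1016 to 1332) and Cldn18 446 CPM, so Cldn2 made up 71.4% of the 304 claudin UMIs there. Leaving the library labelled corpus replicate 1 out, neck-like cells had 6 Cldn2 UMIs in all.

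The other cells of the library labelled corpus replicate 1 held Cldn2 at lower levels. Its main pit-like cluster had 41.1 CPM (27.5 to 59.1) and its cycling cluster, led by Ube2c and Mki67, 35.5 CPM (23.9 to 50.6). Cldn7 was seen there too, at 22.7 and 40.2 CPM, while pit-like and proliferating-like sums of the other plates had 0 to 2.16 CPM. A single cell held 21 of those Cldn7 UMIs. In all, 63 of the 278 cells of this library held Cldn2, 26 held Cldn7 and 14 held both. Other genes stood apart in the same library. Gkn3 was at 4269 CPM there, against 63.2 to 180 CPM in pylorus plates and 92.9 to 516 CPM in the other corpus plates. Aqp5 was at 121 CPM, against 5.21 to 9.94 CPM in pylorus plates and 6.42 to 18.9 CPM in the other corpus plates, and Cftr at 39.0 CPM, against 0.76 to 1.99 and 0.21 to 1.47 CPM. Gast was detected in 49.6% of its cells. The part of these in the Cldn2 result was not tested.

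**Figure D4:**
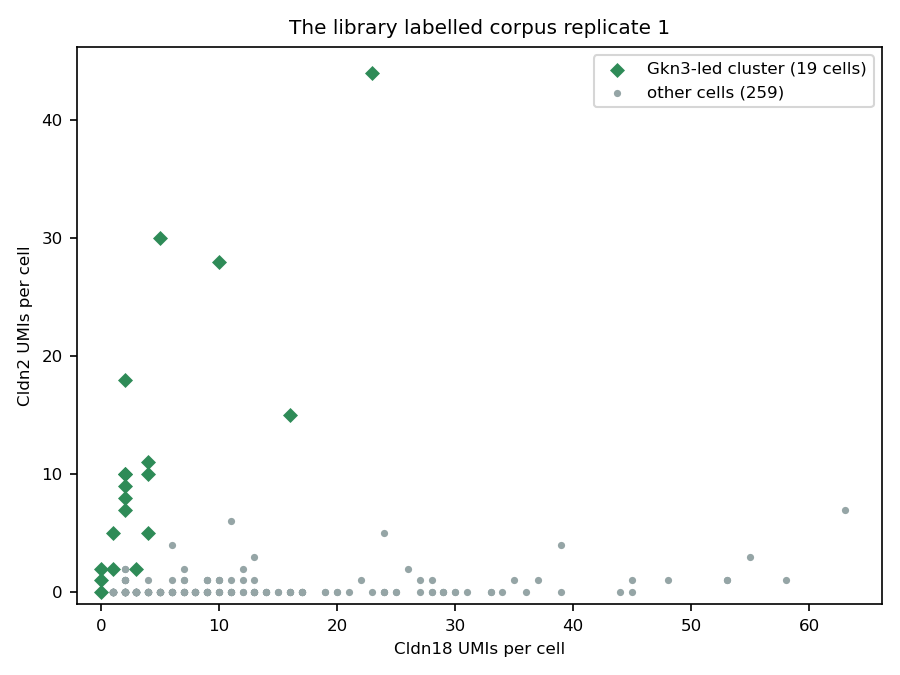
Cldn2 UMIs per cell against Cldn18 UMIs per cell in the 278 kept cells of the library labelled corpus replicate 1, 1 point per cell, with the Gkn3-led cluster of 19 cells as green diamonds. In that cluster Cldn2 reaches 44 UMIs in a cell and mostly exceeds Cldn18; the other cells stay at a few Cldn2 UMIs.

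The regions were then compared for the claudins. Over all kept cells Cldn18 had 674, 784 and 850 CPM in pylorus replicates 1 to 3 and 960, 793, 850 and 840 CPM in corpus replicates 1 to 4. The groups overlapped, and the fitted log2 difference, pylorus minus corpus, was -0.12 ± 0.20 (SE). In these fits, which used limma on sums scaled by trimmed means, 5 of the 7 claudins passed the filter on low counts over all cells. In limma's test 0 of the 5 had an adjusted p (Benjamini-Hochberg) under 0.05, as did 0.0167% of 12003 genes; 0 of the 5 had an unadjusted p under 0.05, and limma with voom weights also called 0. The differences were -0.95 ± 0.57 for Cldn7, -1.30 ± 0.81 for Cldn3, -0.39 ± 0.73 for Cldn23 and 0.10 ± 0.18 for Cldn12. On the 4 similar plates alone Cldn7 was at 0.32, the opposite sign.

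Within classes, 2 claudins could be tested in each: Cldn18 and Cldn12, or Cldn18 and Cldn7 in endocrine-like cells. Cldn18 differed by -0.21 ± 0.24 in neck-like, -0.20 ± 0.17 in pit-like, -0.30 ± 0.21 in endocrine-like, -0.30 ± 0.14 in parietal-like, -0.18 ± 0.21 in proliferating-like and -0.13 ± 0.21 in chief-like cells, below 0 in each and past the threshold in none. In parietal-like cells that sign came from the scaling factors: scaled to library totals only, Cldn18 was at 0.02, and its plates averaged 559 ± 5.5 CPM in pylorus and 552 ± 34.1 CPM in corpus (SD, n = 2 each). With cells thinned to 1000 UMIs it was at 0.09 in neck-like cells, and without pylorus replicate 1 at 0.05 in chief-like cells. In pit-like cells the plates did not overlap, at 946, 1044 and 1127 CPM in pylorus replicates 1 to 3 against 1268, 1205 and 1140 CPM in corpus replicates 1, 3 and 4. In limma's test, 0 of the 2 claudins passed in neck-like, pit-like, chief-like, proliferating-like and endocrine-like cells, at an unadjusted p under 0.05 or with voom weights too, where 0.0755%, 0%, 0%, 0.0256% and 0% of the genes tested passed the adjusted threshold. On the 4 similar plates 0 of 4 claudins passed over all cells, where 3.58% of genes did, and 0 of 2, 2, 2, 2 and 3 in neck-like, pit-like, chief-like, proliferating-like and endocrine-like cells, where 0.917%, 3.16%, 0.561%, 0.321% and 0.296% did. Cldn12 lay between -0.06 ± 0.32 in chief-like and 0.16 ± 0.25 in pit-like cells, and Cldn7 in endocrine-like cells was at -0.05 ± 0.37.

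Parietal-like cells, which secrete acid, were the exception in the tests. Cldn12 was at 23.9 and 19.4 CPM in pylorus replicates 2 and 3 and at 5.36 and 4.26 CPM in corpus replicates 3 and 4, without overlap. It rose by 1.57 ± 0.44 on the log2 scale in pylorus cells (limma, adjusted p = 0.041), 1 of 2 claudins tested, where 6.94% of 6860 genes were called in this class. The values rest on 11, 15, 12 and 6 UMIs, and on 12, 20, 56 and 42 cells. The adjusted p was 0.33 without corpus replicate 3, 0.41 without corpus replicate 4, 0.056 without pylorus replicate 2 and 0.0035 without pylorus replicate 3, in fits that leave 1 plate in a region and assume that it varies like the plates of the other. The call also ended with no filter on low counts (0.064) or a pseudocount of 0.5 (0.052). Scaled to library totals only, Cldn12 was at 1.85 (adjusted p = 0.011). In this class the scaling moved the median log2 difference of all genes to 0.28, against -0.02 with the factors, and 871 of 1008 called genes were then higher in pylorus, against 216 of 476.

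As shares of the 7-claudin total, Cldn18 held 96.0%, 96.8% and 96.4% in pylorus replicates 1 to 3 and 85.5%, 93.9%, 97.6% and 97.1% in corpus replicates 1 to 4. The difference of 2.89 percentage points was within the spread between plates (exact permutation test over 35 splits, two-sided, p = 0.60, adjusted over 7 claudins 0.84), and it was -0.70 points on the 4 similar plates. Cldn7 held 0.71% ± 0.28 (SD, n = 3) in pylorus and 1.48% ± 1.04 (n = 4) in corpus plates, and Cldn2 0.03% ± 0.06 and 2.45% ± 4.85. None of the 7 shares passed, with the smallest exact permutation p of 0.26 for Cldn4 against the 0.029 that 35 splits allow; the adjusted p ran from 0.80 to 0.94.

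Amotl1 was at lower levels in pylorus than in corpus plates in several classes. It had been selected for this difference, so its regional values are given without a test in every class. In neck-like cells it was at 15.2, 11.6 and 10.1 CPM in pylorus replicates 1 to 3 and at 55.2, 107, 70.5 and 69.9 CPM in corpus replicates 1 to 4. The groups were far apart, with the highest pylorus plate below the lowest corpus plate, the means 12.3 ± 2.6 (SD, n = 3) and 75.6 ± 22.01 CPM (SD, n = 4), and the fitted log2 difference -2.45 ± 0.26. It was found in 12.1% to 13.2% of neck-like cells of pylorus plates and in 23.2% to 73.4% of those of corpus plates, and with each cell thinned to 1000 UMIs in 0% to 3.51% and 4.35% to 13.9%. The lowest unthinned corpus share came from the library labelled corpus replicate 1, whose neck-like cells had a median of 6459 UMIs, against 8904 to 18139 in pylorus and 19281 to 22215 in the other corpus plates.

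The regions were also apart inside both neck-like clusters that held cells of each region. In the cluster led by Pga5 and Muc6, Amotl1 was at 16.5 CPM in pylorus replicate 1, against 60.1 and 107 CPM in corpus replicates 1 and 2. In the cluster led by Bpifb1 and Pigr it was at 11.6 and 10.1 CPM in pylorus replicates 2 and 3, against 70.5 and 69.9 CPM in corpus replicates 3 and 4. Some genes that mark these cells were also lower in pylorus plates without overlap. The mucin Muc6 averaged 446 ± 195 CPM in pylorus and 974 ± 279 CPM in corpus plates, and A4gnt, which caps its sugars, 431 ± 81.7 and 764 ± 101 CPM. Pgc, the gene of pepsinogen C, averaged 167289 ± 18803 and 147101 ± 25065 CPM and overlapped. Tff2, at 4009 to 4580 CPM in pylorus and 2990 to 42395 CPM in corpus plates, overlapped too. So did Gkn3, at 416 to 854 and 611 to 18886.5 CPM. The part of these in the Amotl1 values was not tested.

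Chief-like cells, the makers of pepsinogen, had Amotl1 at 13.8, 7.49 and 5.45 CPM in pylorus replicates 1 to 3 and at 46.5, 36.9 and 38.2 CPM in corpus replicates 2 to 4, again without overlap. The fitted log2 difference was -2.03 ± 0.35. Proliferating-like cells had 6.82, 1.49 and 2.16 CPM in pylorus plates against 16.01, 26.1, 8.09 and 13.9 CPM in corpus plates, which did not overlap, with a fitted log2 difference of -1.69 ± 0.48. The unnamed cluster led by Slc1a3, which no marker list named, had 2.83 and 2.70 CPM in pylorus replicates 2 and 3 and 36.8 and 35.7 CPM in corpus replicates 3 and 4.

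Endocrine-like cells had Amotl1 at 19.0, 3.73 and 4.84 CPM in pylorus plates and 17.6, 35.7, 7.70 and 25.9 CPM in corpus plates, and these overlapped. They rested on 7 UMIs in the pylorus plates together and 67 in the corpus plates. In the endocrine-like cluster led by Cel and Gc the plates did not overlap. There Amotl1 was at 0, 4.16 and 5.39 CPM in pylorus replicates 1 to 3, on 0, 2 and 3 UMIs. In corpus replicates 2 to 4 it was at 34.6, 8.14 and 23.9 CPM, on 47, 3 and 9 UMIs. The library labelled corpus replicate 1 held 9 cells of this cluster and was not summed. Pit-like cells had 1.25, 2.88 and 0.87 CPM in pylorus plates and 2.84, 6.53 and 8.92 CPM in corpus replicates 1, 3 and 4, which overlapped. It did not pass the filter on low counts in this class. Parietal-like cells had 0 UMIs in pylorus replicates 2 and 3 and 5 and 6 in corpus replicates 3 and 4. Immune-like cells had 0 of it in every plate. Neck-like and chief-like cells held 45.0% and 22.05% of all Amotl1 UMIs with 15.1% and 17.3% of all UMIs. Over all kept cells Amotl1 was at 8.79, 4.36 and 3.32 CPM in pylorus replicates 1 to 3 and at 20.05, 56.6, 21.1 and 24.1 CPM in corpus replicates 1 to 4.

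**Figure D5:**
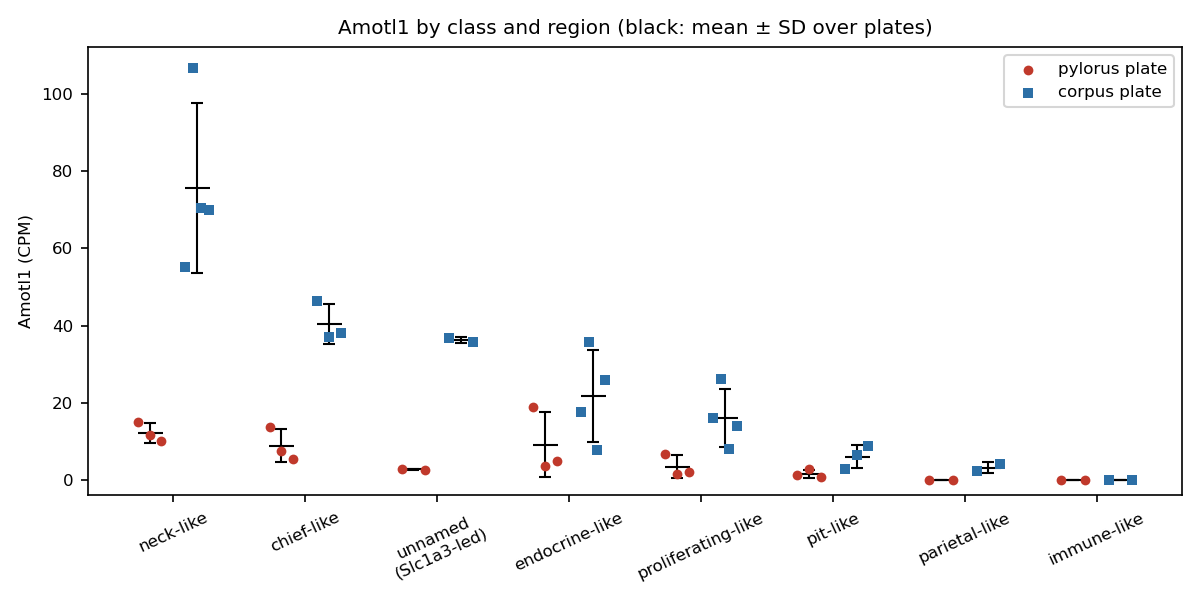
Amotl1 in CPM by class, 1 point per plate (pylorus red circles on the left, corpus blue squares on the right), with mean ± SD over plates in black. In neck-like cells the pylorus plates lie at 10.1 to 15.2 CPM and the corpus plates at 55.2 to 107 CPM, and the Slc1a3-led unnamed cells and chief-like cells are also apart, while endocrine-like cells overlap.

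The other angiomotins had no such gap between regions in neck-like cells. In neck-like cells Amot, the founding member, averaged 15.6 ± 3.3 CPM in pylorus and 9.4 ± 3.7 CPM in corpus plates, and Amotl2 29.1 ± 10.3 and 23.9 ± 14.7 CPM (SD, n = 3 and 4). Their fitted log2 differences were 0.65 ± 0.34 and 0.39 ± 0.48, and neither passed limma's test (adjusted p = 0.998 for both). Yap1, which angiomotins bind, was at 48.0 ± 12.3 and 52.2 ± 20.1 CPM. In parietal-like cells Amotl2 was at 11.8 and 28.3 CPM on average on the scale of the fit (n = 2 each) and fell by 1.15 ± 0.33 on the log2 scale in pylorus cells (limma, adjusted p = 0.049), in the class where 6.94% of genes passed. Scaled to library totals only, it was at -0.86 and did not pass (adjusted p = 0.10).

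Among 6 lists of junction and Hippo genes, which partly overlap, the 56 genes tested over all cells held 0 that passed limma's test, and 1 had an unadjusted p under 0.05. Neck-like, pit-like, chief-like, proliferating-like and endocrine-like cells gave 0 of 46, 47, 41, 43 and 37, with 1, 3, 2, 2 and 1 at an unadjusted p under 0.05, and parietal-like cells gave 1 of 39, Amotl2. Over all genes tested, 1.27% had an unadjusted p under 0.05 over all cells, and 3.44%, 2.33%, 2.63%, 2.40% and 1.86% in those 5 classes. In parietal-like cells 6.94% of all genes were called, beside that 1 of 39. An unadjusted p under 0.05 was found there for 2 of the 39, and for 21.4% of all genes. The lists' median log2 differences over all cells lay between -0.05 and 0.52, beside 0.01 for all genes. The most abundant of them over all cells, in the order of the lists, were the junction protein Lsr at 250 CPM and F11r (JAM-A) at 176 CPM, E-cadherin (Cdh1) at 829.4 CPM and beta-catenin (Ctnnb1) at 352 CPM, the polarity genes Llgl2 at 117 CPM and Dlg1 at 91.6 CPM, the Hippo kinase Lats1 at 47.0 CPM and the scaffold Magi1 at 46.1 CPM, and the YAP target Cyr61 at 31.6 CPM. In neck-like cells Cyr61 was at 102 CPM. Their fitted regional differences over all cells lay between -0.03 ± 0.21 for Lats1 and 0.29 ± 0.24 for Magi1.

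Of 20 other claudin names searched, 15 were in the tables. The row named Cldn25 had 93.9 CPM, but it lies on chromosome 16, where RefSeq gives this symbol as an old name of Cldnd1, a claudin-domain gene outside the claudin family proper. Cldn8 followed with 8.84 CPM and reached 33.3 CPM in chief-like cells, and Cldn22 had 1.62 CPM and reached 8.07 CPM in neck-like cells. Cldn6 had 33 UMIs, with 7.52 CPM in endocrine-like cells, and the others had 1 to 11 UMIs each. Cldn8 and Cldn22 were named after their values were seen. Neither was called between regions.

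Genes whose levels went most closely with a member were sought over 43 sums of a class in a plate, among 5860 genes with a mean of at least 20 CPM. The sums share plates and depth, so the correlations are descriptions. Cldn18 went with Lgr4 (Pearson r = 0.93), Ctnnd1 (0.92) and Atp8b1 (0.91). Cldn7 went with Rab3b (0.87), Srp14 (0.86) and Il10rb (0.85), and Cldn3 with Scn7a (0.85), Cacna2d2 (0.84) and St18 (0.84). Cldn2 went with Gast (0.82), Kcne3 (0.65) and Cela1 (0.63), and Gast and Kcne3, like Cldn2, had their highest level over all cells in the library labelled corpus replicate 1. Amotl1 went with Fkbp11 (0.77), Lman1 (0.77) and Fam114a1 (0.76), and Cldn4, on 7 UMIs, with Napg (0.73), Rasa1 (0.65) and Arnt (0.61).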

How the data were processed

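Single cells of mouse gastric epithelium were profiled by SORT-seq in 7 plates, 3 labelled pylorus and 4 labelled corpus. The tables the authors deposited hold whole numbers, the UMIs of each gene in each well. The submitters' processing notes name the build mm9; aligner and counter: not given in the sources used here. Wells with at least 1000 UMIs without spike-ins were kept. Cells were scaled to 10000 UMIs and clustered in scanpy 1.11.5 (igraph 0.11.9; 2000 variable genes less the claudins, Amotl1 and listed junction genes, 30 components, 15 neighbours, resolution 1.0), without batch correction or a doublet caller, since a sorter filled each well. Clusters took names from at least 3 detected markers.

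The design named a count model. The tables' layout did not pass the unit check for it, so UMIs summed per plate, or per class with at least 10 cells in a plate, were scaled with TMM factors (trimmed means of log ratios), filtered (10 counts at the median library size, 15 in total) and fitted as log2 CPM with a pseudocount of 2 in limma 3.58.1 (R 4.3.3), which pools the spread over genes; the threshold was 0.05 after Benjamini-Hochberg adjustment over all genes tested. A fold change on this scale understates changes of low genes. CPM in the text are scaled to all UMIs of the cells summed, except where the scale of the fit is named. The fits were tested on simulated counts. Shares were compared by exact permutation in scipy 1.17.1. Intervals and floors (3 counts) cover counting error only. The members, lists and tests were chosen with earlier results of these data known. Named genes were the 8 members, up to 4 called genes of each list or else its 2 most abundant, and the 3 genes most like 6 of the members. Promoter windows are from RefSeq. Alternatives were other size factors, filters, pseudocounts, weights, depths, clusterings, plates and a replicate block.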

Additional observations from a re-analysis of the deposited data

Results flagged for a closer look

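Of 29 sets of 4 corpus plates examined, 12 had a plate far from the other 3. Chance gives about 1 in 20, but the sets share plates and cells, and in 5 of the 12 the other 3 plates were at 0, where a single UMI is enough. Cldn2 in the library labelled corpus replicate 1 accounted for 4 of these, at 109 CPM over all kept cells, 422 CPM in neck-like, 52.8 CPM in endocrine-like and 29.6 CPM in proliferating-like cells, where the other corpus plates had at most 0.77 CPM. Cldn7 stood apart in the same library, at 9.51 CPM in neck-like and 28.8 CPM in proliferating-like cells. Corpus replicate 2 stood apart for Amotl1 over all kept cells, at 56.6 CPM, for Cldn3, at 6.63 CPM, and for Cldn4, at 0.34 CPM over all kept cells and 0.69 CPM in endocrine-like cells, the last on 1 UMI. That plate held 101 endocrine-like and 4 pit-like cells, against 23 to 34 and 64 to 79 in the other corpus plates; the part of this was not tested. Corpus replicate 3 stood apart for Cldn23 in neck-like cells, at 1.64 CPM on 2 UMIs, and for Cldn3 in proliferating-like cells, at 1.62 CPM on 1 UMI.

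The 453 wells left out for low counts held 104 Cldn18 UMIs, 573 CPM of their 181601 UMIs, and 4 Cldn7 UMIs, both above the 3 counts that a count of 0 allows.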

How the results depend on the processing

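Depth and plate number limit these results: Cldn4 and Cldn23 are counted in single UMIs, parietal-like cells were compared with 2 plates a region, and the plates fall into 2 sets. The negative binomial count tests that had been planned, as the main test and as an alternative, were not run, and thinned sums gave no value where genes failed the filter. The pseudocount of 0.5, the voom weights, the scaling to library totals only and, for the fits, both clustering alternatives were chosen after seeing the data. Of 324 recalculated log2 differences of members, 289 kept their direction and side of the threshold. They include Amotl1, which had been selected for its regional difference, so the count is no test of that gene. Of 286 recalculated class levels, 278 moved by less than the spread (SD) between plates. Leaving out a single plate cannot move a mean that far, so those recalculations could not come out otherwise. The cause was not tested for any change given here.

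On the 4 similar plates alone the number of genes called was 429 over all cells, 280 in pit-like, 73 in neck-like, 40 in chief-like, 19 in endocrine-like and 24 in proliferating-like cells. The replicate numbers correlated at 0.45, -0.11 and 0.47 between regions, so they were not taken as pairs. With the replicate block the counts were 1, 14, 3, 1 and 4 over all, neck-like, pit-like, chief-like and proliferating-like cells. Library totals only gave 1 over all and 1008 in parietal-like cells, and put Cldn18 in parietal-like cells at 0.023. A pseudocount of 0.5 gave 0 over all and 1 in proliferating-like cells, and voom weights 0 over all and 1 in both pit-like and proliferating-like cells. Without the filter, 1 was called in pit-like and 3 in chief-like cells. Wells from 2000 UMIs gave 0 over all, 3 in neck-like and 0 in proliferating-like cells. Thinning gave 1, 1, 0 and 37 over all, neck-like, proliferating-like and parietal-like cells. With junction genes kept in the clustering, 2 were called in pit-like and 0 in proliferating-like cells, and at resolution 0.5, 3 in neck-like, 1 in pit-like and 0 in proliferating-like cells. Leaving out single plates gave 0 to 0 over all and in endocrine-like, 3 to 5 in neck-like, 142 to 1389 in parietal-like, 0 to 3 in chief-like and 0 to 2 in pit-like and in proliferating-like cells; the Cldn18 share difference then ran from 0.235 to 4.24 points.

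Small differences changed sign, with these log2 values. For Cldn12 in neck-like cells they were -0.091 with voom, -0.099 on the 4 similar plates, -0.044 from 2000 UMIs and -0.24 to 0.20 without single plates. For Cldn12 in proliferating-like cells they were -0.027 with voom, -0.17 on the 4 plates, -0.13 from 2000 UMIs, -0.024 with junction genes kept, -0.055 at resolution 0.5 and -0.093 to 0.28 without single plates. Leaving out single plates also gave -0.026 to 0.30 for Cldn12 in pit-like cells, -0.21 to 0.20 for Cldn12 and -0.23 to 0.047 for Cldn18 in chief-like cells, and -1.09 to 0.18 for Cldn23 over all cells. Cldn18 was at 0.085 in neck-like cells when thinned and at 0.087 in chief-like cells with the replicate block. Cldn7 in endocrine-like cells was at 0.083 with voom, 0.56 on the 4 plates, 0.15 from 2000 UMIs and -0.34 to 0.13 without single plates, and over all cells at 0.32 on the 4 plates. Share differences, in percentage points, were -0.70 for Cldn18, 0.031 for Cldn2, 0.016 for Cldn3, 0.249 for Cldn7 and -0.026 for Cldn23 on the 4 plates, and -0.023 for Cldn23 from 2000 UMIs. Thinning gave 0.159 for Cldn3 and -0.51 for Cldn12. Without single plates, Cldn23 ran from -0.073 to 0.057 and Cldn2 from -3.23 to 0.014, the last without the library labelled corpus replicate 1. None of these passed a test.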
